A study of Mus musculus with 6 samples.

Results

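The *Cyp4a* genes encode cytochrome P450 enzymes of the endoplasmic reticulum that hydroxylate the terminal, or omega, carbon of fatty acids. This omega-hydroxylation is the first step of omega-oxidation, which turns fatty acids into dicarboxylic acids that are then shortened in peroxisomes. In mouse liver *Cyp4a10* and *Cyp4a14* are textbook targets of the fatty acid receptor PPARα and rise with fasting and fibrate drugs, whereas *Cyp4a12a* is known as the member that is more abundant in males.

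The 6 genes described here, *Cyp4a10*, *Cyp4a14*, *Cyp4a31*, *Cyp4a32*, *Cyp4a12a* and *Cyp4a12b*, were taken by gene symbol from a table of 45777 genes, and all 6 were among the 18636 genes with enough counts to be tested. The family was selected on its difference between the 2 genotypes below, so that difference is given as a description, without a p-value for any of the 6 genes or their sum. Liver RNA came from 3 wild-type (WT) mice and 3 liver-specific *Pak4* knockout (LKO) mice, all C57BL/6 males that were 8 weeks old and had been fasted for 24 h. Both groups carried *Pak4* flox/flox alleles, and the WT mice were littermate controls without Cre. The LKO mice also carried Alb-Cre, in which the albumin promoter drives Cre recombinase, so that *Pak4*, the gene of a serine/threonine kinase, is removed in hepatocytes but not by design in the other cells of the liver. Each mouse gave 1 library.

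The 6 genes lie in 323 kb of chromosome 4 (GRCm38, the assembly behind mm10) between bases 115299046 and 115622507. *Cyp4a12a* (Entrez gene 277753) and *Cyp4a12b* (13118) stand at the lower end of this stretch, and *Cyp4a14* (13119), *Cyp4a10* (13117), *Cyp4a31* (666168) and *Cyp4a32* (100040843) follow in that order. All but *Cyp4a14* are on the plus strand. The copies are close to one another in sequence. Identity was taken over all columns of a pairwise alignment, gaps included. The coding sequence of *Cyp4a10* was identical to that of *Cyp4a32* at 97.2% of columns, to *Cyp4a31* at 96.6%, to *Cyp4a12a* at 80.2% and to *Cyp4a14* at 75.2%. *Cyp4a12a* and *Cyp4a12b* were identical at 98.5%.

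The next 6 lines show how far the members can be told apart by a read. They give the 60 coding bases, within 1 exon of each gene, at which the most alike pair differed most among 820 such stretches, with capitals at bases that differ from *Cyp4a10*. The transcripts are those of GENCODE for GRCm38, written 5′ to 3′ on the strand of the gene.
Cyp4a10: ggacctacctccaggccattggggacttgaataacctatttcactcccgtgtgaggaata
Cyp4a31: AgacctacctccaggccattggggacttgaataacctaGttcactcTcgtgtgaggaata
Cyp4a32: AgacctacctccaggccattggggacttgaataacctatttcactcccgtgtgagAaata
Cyp4a14: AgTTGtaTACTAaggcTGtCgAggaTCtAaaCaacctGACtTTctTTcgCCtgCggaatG
Cyp4a12a: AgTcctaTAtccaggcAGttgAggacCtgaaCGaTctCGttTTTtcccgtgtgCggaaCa
Cyp4a12b: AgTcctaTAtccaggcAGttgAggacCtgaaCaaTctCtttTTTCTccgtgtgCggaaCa
The *Cyp4a10* stretch is at chr4:115524733-115524792, and the *Cyp4a14* stretch at chr4:115492168-115492227 on the minus strand. Even here *Cyp4a10* differed from *Cyp4a32* at 2 bases and from *Cyp4a31* at 3, and *Cyp4a12a* differed from *Cyp4a12b* at 4, while *Cyp4a14* differed from *Cyp4a10* at 28.

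The heme-binding stretch, which holds the cysteine that binds the heme iron of a P450, was closer still. The capitals below mark the codon of that cysteine, in 30 coding bases interrupted by an intron in each gene.
Cyp4a10, Cyp4a31 and Cyp4a32: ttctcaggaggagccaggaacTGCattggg
Cyp4a12a and Cyp4a12b: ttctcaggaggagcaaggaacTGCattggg
Cyp4a14: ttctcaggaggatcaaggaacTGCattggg
Of all stretches of 100 bases, the length of a read, 12.7% in the *Cyp4a10* transcript, 8.22% in *Cyp4a31* and 20.1% in *Cyp4a32* also occurred in another of these genes. The share was 35.8% in *Cyp4a12a* and 36.2% in *Cyp4a12b*, and it was 0 in *Cyp4a14*. How the authors' counting divided reads that fit more than 1 gene was not given in the sources used here. The values of *Cyp4a31*, *Cyp4a32* and the *Cyp4a12* pair are therefore uncertain as single genes, and the sums over *Cyp4a10*, *Cyp4a31* and *Cyp4a32* and over the *Cyp4a12* pair are given beside them.

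The libraries held 45934632 to 59576437 counts. *Pak4* itself had 268, 210 and 271 counts in WT mice 1, 2 and 3 against 85, 52 and 149 in LKO mice 1, 2 and 3, with a log2 fold change of −0.71 (adjusted p = 0.101 with edgeR's quasi-likelihood test). This count covers the whole gene, including parts that the floxed allele may leave in place. The genotypes also differed in what filled the libraries. The small cytoplasmic and nuclear RNAs 7SL and 7SK took 5.05% to 5.84% of counts in the WT livers against 13.8% to 18.2% in the LKO livers. Levels below are CPM, that is counts relative to the scaled library size after TMM scaling, which sets the bulk of genes at no change, unless FPKM or TPM, the 2 units scaled for gene length, are named. The TMM factors were 1.28 to 1.43 in WT and 0.639 to 0.816 in LKO mice. On the CPM scale *Pak4* in LKO mouse 3 was about level with WT mouse 2, so the groups were not apart. By TPM *Pak4* stood at 2.41, 2.31 and 2.59 in the WT livers against 0.457, 0.265 and 0.845 in the LKO livers.

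*Cyp4a10*, *Cyp4a14*, *Cyp4a31* and *Cyp4a32*, which lie side by side, were all at several times the WT level in LKO liver, and *Cyp4a12a* was lower. By edgeR's test at an adjusted p under 0.05, 4 of the 6 genes were higher in LKO mice, where 19.6% of all tested genes were, and 1 was lower, where 20.5% were. The CPM of 5 of the 6 did not overlap between genotypes, as was the case for 54.0% of tested genes. Since the family was chosen on this contrast, these counts are not read further. In bulk liver, a change in RNA per cell cannot be told apart from a change in the number of cells that express a gene.

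*Cyp4a14*, a strongly inducible lauric acid hydroxylase, was the most abundant member in LKO liver by FPKM. It stood at 360, 162 and 75.8 CPM in WT mice 1, 2 and 3 against 3761, 3487 and 4535 CPM in LKO mice 1, 2 and 3. The LKO mice lay close together, and the lowest of them was far above WT mouse 1, the highest of a widely spread WT group. The log2 fold change was 4.30 ± 0.56 (standard error). By mean TPM, *Cyp4a14* was number 538 of 21949 protein-coding genes in WT and number 52 in LKO liver.

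*Cyp4a10*, the best known PPARα target among the members, moved in the same manner. It had 13703, 5406 and 3652 counts in the WT livers against 100217, 65276 and 114552 in the LKO livers. At 184, 82.6 and 55.2 CPM for WT against 2277, 1872 and 2477 CPM for LKO, the groups did not overlap, and WT mouse 1 was again the highest of its group. Among the 11668 protein-coding genes that averaged at least 1 CPM, the rise of *Cyp4a10* was the 22nd largest, beside the 25th for *Cyp4a14* and the 26th for *Cyp4a31*.

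The neighbouring copies *Cyp4a31* and *Cyp4a32* are less studied members with near-identical sequence to *Cyp4a10*. *Cyp4a31* stood at 6.21, 3.73 and 2.57 CPM in the WT livers against 72.3, 64.5 and 110 CPM in the LKO livers. *Cyp4a32* stood at 17.8, 14.5 and 9.28 CPM in the WT livers against 127, 99.3 and 149 CPM in the LKO livers. Neither overlapped between genotypes, WT mouse 1 was the highest WT mouse for both, and LKO mouse 3 the highest LKO mouse. The log2 fold change was 4.30 ± 0.37 for *Cyp4a31* and 3.17 ± 0.27 for *Cyp4a32*, so that *Cyp4a32* had the smallest rise of the 4 genes. Summed over *Cyp4a10*, *Cyp4a31* and *Cyp4a32*, which is free of how reads were divided among them, the level was 125 ± 73.4 CPM in the WT livers and 2416 ± 354 CPM in those of LKO mice (mean ± SD, n = 3 each), a ratio of 19.3.

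*Cyp4a12a*, the male-predominant member and the main producer of a vasoactive hydroxylated arachidonic acid, went the other way. It stood at 219, 276 and 291 CPM in the WT livers against 123, 157 and 139 CPM in the LKO livers, so that the genotypes did not overlap, and the log2 fold change was −0.91 ± 0.18. *Cyp4a12b*, its near-identical copy, stood at 79.5, 111 and 95.7 CPM in the WT livers against 49.4, 81.3 and 88.5 CPM in the LKO livers. Here the groups overlapped, with LKO mice 2 and 3 above WT mouse 1, and the log2 fold change was −0.38 ± 0.23. The pair together stood at 358 ± 51.0 CPM in the WT livers and 213 ± 35.2 CPM in those of LKO mice (n = 3 each), a ratio of 0.595 without overlap.

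**Figure D1:**
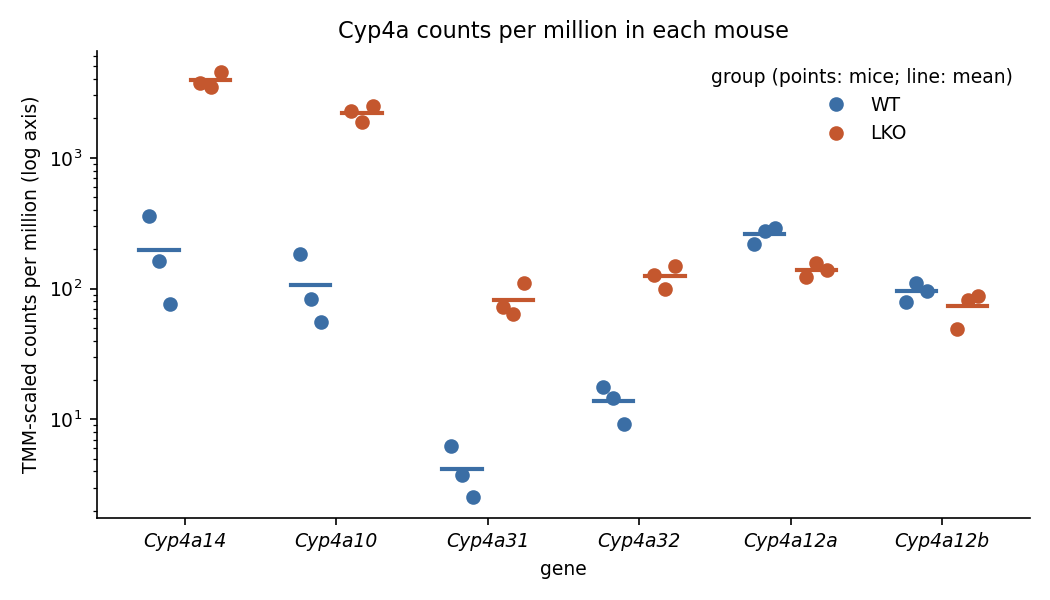
TMM-scaled CPM of each *Cyp4a* gene (log axis) in the 3 WT and 3 LKO mice, each point 1 mouse and each line a group mean. *Cyp4a14*, *Cyp4a10*, *Cyp4a31* and *Cyp4a32* were without overlap higher in LKO mice, *Cyp4a12a* was lower in every LKO mouse, and the groups overlapped for *Cyp4a12b*.

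The size of the *Cyp4a* transcript pool and its make-up both differed between genotypes. All 6 genes summed to 866, 650 and 530 CPM in the WT livers against 6410, 5760 and 7499 CPM in the LKO livers, a ratio of group means of 9.61. They took 0.0925% ± 0.0245 of all counts in WT and 0.491% ± 0.111 in LKO mice (n = 3 each). The WT mice differed less in this sum, by 1.63 times from lowest to highest, than in *Cyp4a14* alone, by 4.74 times, since WT mouse 1 had the most *Cyp4a14* and the least *Cyp4a12a*.

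Shares of the summed FPKM show the make-up, because scaling between mice cancels within a mouse. In WT liver *Cyp4a12a* was the largest share in WT mice 2 and 3, with 41.6% and 54.0%, whereas in WT mouse 1 it held 24.6% and *Cyp4a14* led with 39.3%. In LKO mice *Cyp4a12a* held 1.84%, 2.62% and 1.78%. The groups did not overlap, and the spread among WT mice was far wider than that among LKO mice. *Cyp4a14* held 54.6%, 56.6% and 56.5% and *Cyp4a10* 39.5%, 36.3% and 36.9% of the pool in LKO mice 1, 2 and 3. *Cyp4a10* and *Cyp4a14* together made up 42.3% ± 19.2 of the pool in WT and 93.5% ± 0.570 in LKO mice, and the *Cyp4a12* pair 54.7% ± 19.4 and 3.17% ± 0.738 (n = 3 each). *Cyp4a32* held a like share in both, 2.44% ± 0.310 and 2.20% ± 0.182, and its groups overlapped.

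**Figure D2:**
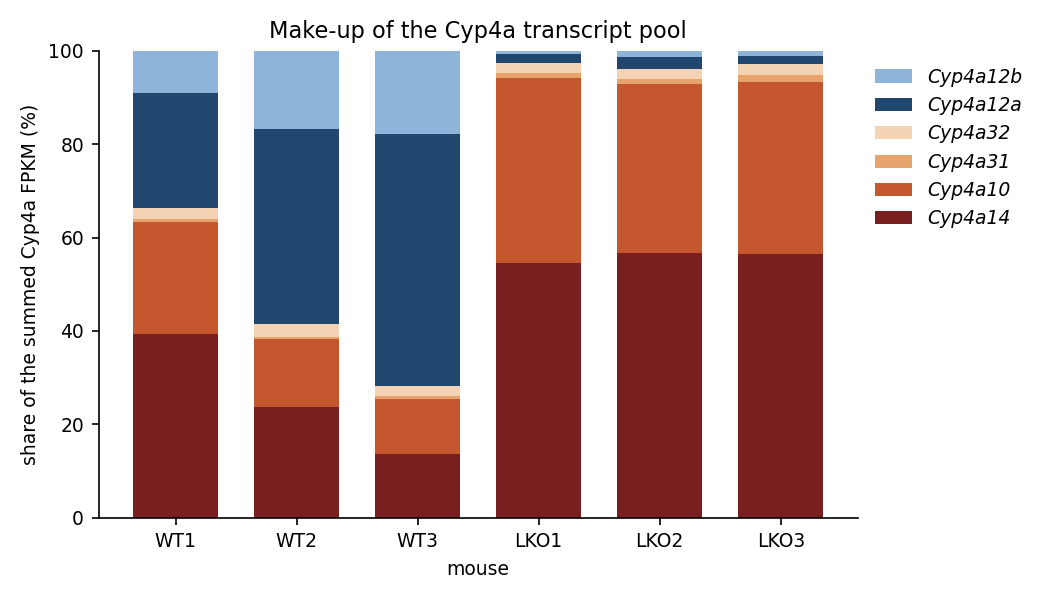
Share of each gene in the summed FPKM of the 6 *Cyp4a* genes (%, y axis) in each mouse (x axis). *Cyp4a12a* and *Cyp4a12b* (blue) filled 33.6% to 71.9% of the pool in the WT mice and 2.58% to 3.998% in the LKO mice, where *Cyp4a14* and *Cyp4a10* filled the rest but for a few percent.

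Ratios between members, which also need no scaling between mice, were alike in both genotypes for some pairs and differed for others. Those among *Cyp4a10*, *Cyp4a31* and *Cyp4a32* and within the *Cyp4a12* pair depend on how shared reads were divided. Since that was not given, these ratios are uncertain as values of single genes. *Cyp4a14* was at 164%, 165% and 115% of the *Cyp4a10* FPKM in the WT livers against 138%, 156% and 153% in the LKO livers. The genotypes overlapped in this ratio, with means of 148% and 149%. *Cyp4a31* was at 2.80% to 3.83% of *Cyp4a10* in WT and at 2.64% to 3.70% in LKO mice, again with overlap. *Cyp4a32* instead dropped from 15.7% ± 4.75 of *Cyp4a10* in WT to 5.87% ± 0.426 in LKO mice, without overlap. *Cyp4a12b* went from 36.8% ± 3.62 of *Cyp4a12a* to 52.5% ± 11.9, where the lowest LKO ratio, 40.6%, was just above the highest WT ratio, 40.5%. The widest shift was that of *Cyp4a12a* over *Cyp4a10*, from 103%, 288% and 454% in WT mice 1, 2 and 3 to 4.66%, 7.22% and 4.82% in LKO mice.

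How far the genes rose or fell depended on how libraries were scaled, while the sign of each value was the same under 19 alternatives, which describes genes chosen on this contrast. When counts were scaled to library totals, the median log2 fold change of all tested genes moved from −0.04 to −0.90, and with limma on log2(TPM + 1) it was −0.79. The log2 fold change of *Cyp4a10* was then 3.51 and 2.98, that of *Cyp4a12a* −1.79 and −2.42, and that of *Cyp4a12b* −1.27 and −1.91. Taken relative to the median of all genes, *Cyp4a10* stood at 4.40 with TMM, 4.41 with totals and 3.77 with TPM. On the same relative scale *Cyp4a12a* stood at −0.87, −0.89 and −1.63. Leaving out WT mouse 1, the highest WT mouse, raised the log2 fold change of *Cyp4a10* to 5.01 and that of *Cyp4a14* to 5.06.

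**Figure D3:**
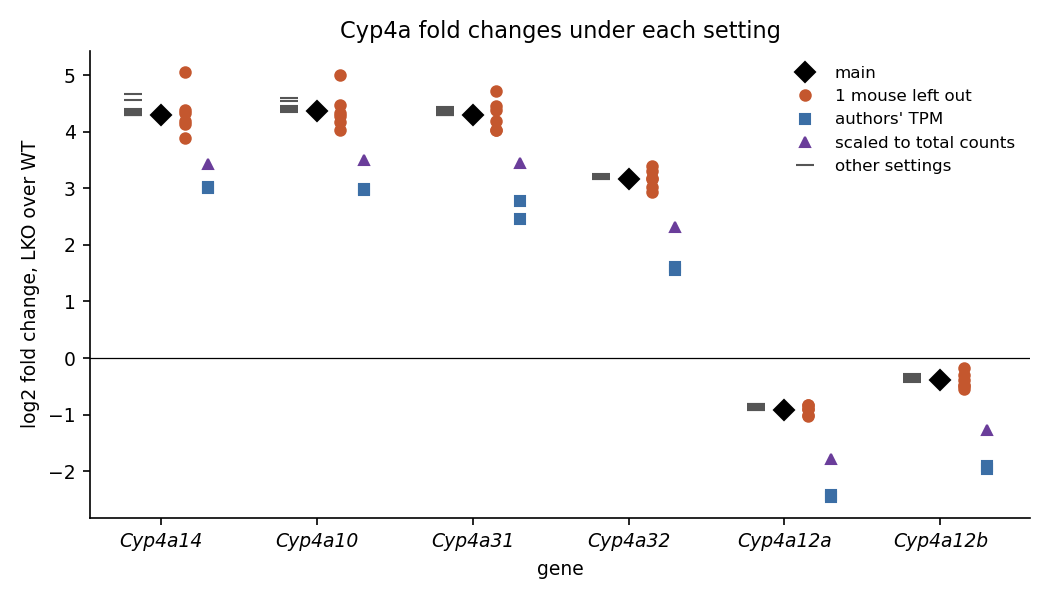
Log2 fold change of LKO over WT (y axis) of each *Cyp4a* gene (x axis) in the main comparison (diamond) and under each alternative. No setting moved a gene across 0. Scaling to total counts (triangles) and the authors' TPM (squares) lowered all 6 values, and leaving out 1 mouse (circles) moved *Cyp4a14* most, between 3.89 and 5.06.

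The spread among WT mice was shared by the members that were higher in LKO mice. All 4 of *Cyp4a10*, *Cyp4a14*, *Cyp4a31* and *Cyp4a32* were highest in WT mouse 1, with a median of 2.32 times the mean of WT mice 2 and 3. Among 26 other PPARα targets, 22 (84.6%) were highest in WT mouse 1, with a median of 1.28 times, and 16 of 25 genes of omega-oxidation and peroxisomal oxidation were. Over the 12999 genes that averaged at least 1 CPM, this share was 33.3%. Of 14 male-biased genes, 2 were highest in WT mouse 1, and *Cyp4a12a* was lowest there.

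The change along the chromosome was uneven. The 2 genes at the lower end, *Cyp4a12a* and *Cyp4a12b*, had negative values, and *Cyp4a14*, *Cyp4a10*, *Cyp4a31* and *Cyp4a32* had values of 3.17 to 4.36. *Cyp4b1-ps2*, a transcribed pseudogene between *Cyp4a31* and *Cyp4a32* with 6 to 13 counts a mouse, was higher by less (1.40 ± 0.40, adjusted p = 0.0243), and it did not pass with any 1 mouse left out (adjusted p up to 0.0847). Between the *Cyp4a12* pair and *Cyp4a14* lies *Cyp4a30b*, which had no counts in any mouse, as had *Cyp4a29* and *Cyp4x1* below the cluster. *Gm52676*, a long noncoding RNA gene whose span covers *Cyp4a14*, was higher in LKO mice with 0 to 83 counts a mouse (log2 fold change 2.72 ± 0.92, adjusted p = 0.0455). Whether counting used the strand is not stated, so its reads cannot be told apart from those of *Cyp4a14*. *Cyp4b1*, the P450 gene directly above *Cyp4a32*, stood at 17.6 ± 1.73 CPM in the WT livers and 20.6 ± 1.76 CPM in those of LKO mice (n = 3 each) and did not pass the test (log2 fold change 0.23 ± 0.15, adjusted p = 0.248). Further out, *Atpaf1*, an ATP synthase assembly factor, was higher (0.65) and *Mob3c* lower (−0.51). On the other side *Pdzk1ip1* (−2.17) and *Stil* (−2.39) were lower, both at or below 118 counts a mouse. *Stil*, *Atpaf1* and *Mob3c* each missed the threshold in most fits with 1 mouse left out, with adjusted p up to 0.0858, 0.107 and 0.105. *Tal1* (0.29, adjusted p = 0.566) and *Efcab14* (−0.07, adjusted p = 0.77) did not pass.

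**Figure D4:**
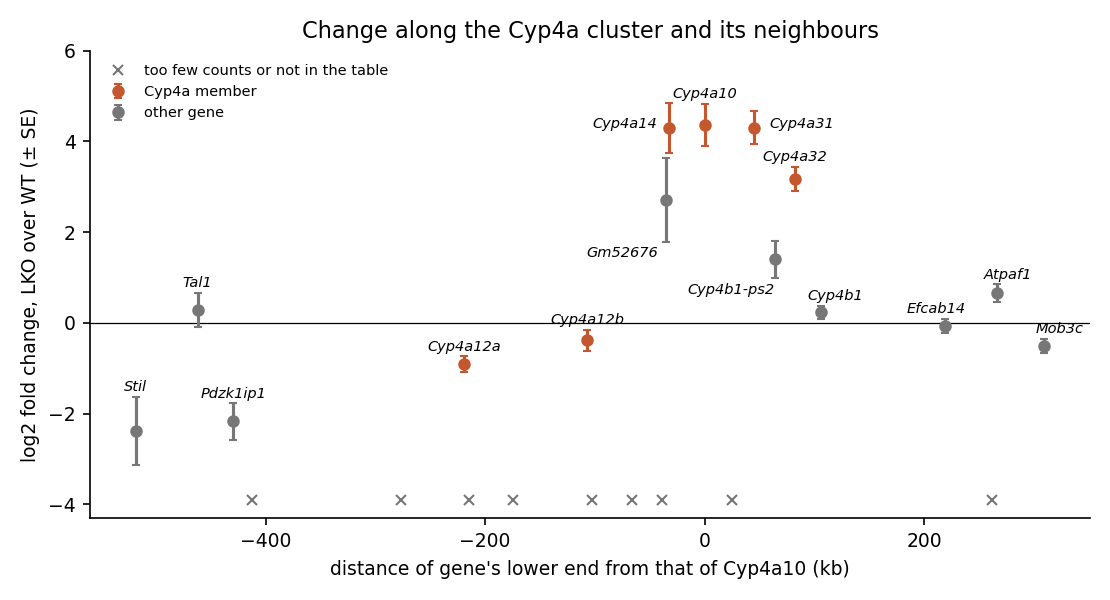
Log2 fold change of LKO over WT with its standard error (y axis) against the distance of each gene's lower end from that of *Cyp4a10* (kb, x axis), for the *Cyp4a* genes (orange) and their neighbours (grey). The *Cyp4a* genes between −32.1 and 82.6 kb had values above 3 and those at −219 and −107 kb below 0, the pseudogene *Cyp4b1-ps2* at 63.8 kb had 1.40, and crosses mark genes with too few counts or no row.

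Some genes elsewhere changed between genotypes much as the members did. Likeness was measured over the 6 mice as the root mean square difference of log2(CPM + 1), each gene set to its own WT mean, among 11667 protein-coding genes. The closest to *Cyp4a10* were *Cyp4a14* (0.181) and *Cyp4a31* (0.431), followed by *Insig2* (0.507), which encodes an endoplasmic reticulum protein that retains SREBP, *Apoa4* (0.617), an apolipoprotein gene, and *Sult1d1* (0.669), a sulfotransferase gene. Means of these 3 went from 117 to 1638 CPM, from 76.3 to 1765 CPM and from 117 to 3169 CPM. Their distances were near the spread of *Cyp4a10* itself within genotypes (SD 0.641 on the log2 scale), so they reflect a like change between genotypes and no likeness from mouse to mouse is read from them. *Cyp4a12a* varied less within genotypes (SD 0.198) and had smaller distances: *Ptpn3* (0.0452), *Eftud2* (0.0712), *Myo9b* (0.0736), *Hc* (0.0908), which encodes complement C5, and *Habp2* (0.0933). These were the smallest among 11667 genes, so no likeness beyond the change between genotypes is read from them.

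The rest of the *Cyp4* family was listed, as were the genes below, with earlier results of these data known. No tested gene of it rose as far as *Cyp4a10*, *Cyp4a14*, *Cyp4a31* and *Cyp4a32*, and its highest log2 fold change was 0.47. Of 14 other *Cyp4* genes, 9 could be tested. By edgeR's test 4 of these were lower and 0 higher in LKO mice, where 20.5% and 19.6% of all tested genes were. Their median log2 fold change was −0.70 against −0.04 over all tested genes. At an unadjusted p under 0.05, 1 was higher, and exactTest and DESeq2 each called 0 higher. *Cyp4f14*, which encodes a leukotriene hydroxylase, stood at 107, 131 and 132 CPM in the WT livers against 23.6, 20.3 and 11.4 CPM in the LKO livers (−2.74, adjusted p = 0.000333). *Cyp4v3*, a fatty acid omega-hydroxylase gene, stood at 1102, 914 and 1063 CPM in the WT livers against 254, 201 and 162 CPM in the LKO livers (−2.32, adjusted p = 0.000315). For both genes every LKO mouse was below every WT mouse. *Cyp4f13* (−0.83) and *Cyp4f17* (−0.70) had smaller falls, and all 4 had negative values under each scaling tried. *Cyp4f17* kept its call only without WT mouse 3 among the fits that left out 1 mouse (adjusted p up to 0.115).

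The genes that work with CYP4A enzymes included higher and lower ones. Of 25 tested genes for electron supply, alcohol and aldehyde oxidation and peroxisomal oxidation, 5 were higher and 7 lower, where 19.6% and 20.5% of all tested genes were, with a median of −0.45. The electron carriers of microsomal P450s split. *Por*, the P450 reductase gene, stood at 79.1 ± 19.3 CPM in the WT livers and 235 ± 115 CPM in those of LKO mice (n = 3 each; 1.57, adjusted p = 0.00823), and *Cyb5a*, the cytochrome b5 gene, rose by 1.68 on the log2 scale (adjusted p = 0.00107). *Cyb5r3*, the gene of the reductase of cytochrome b5, instead fell from 168 ± 29.6 to 21.3 ± 3.30 CPM (−2.98, adjusted p = 0.000182). Of the dehydrogenases that oxidize alcohols, *Adh5* was higher (1.67, adjusted p = 0.00177) and *Adh1* lower (−2.91, adjusted p = 0.000808).

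In the peroxisomal part of this list, *Acaa1b*, a thiolase gene (−1.98, adjusted p = 0.00563), and *Acot3*, a thioesterase gene (−2.52, adjusted p = 0.0189), were lower. *Crot*, which encodes the peroxisomal carnitine octanoyltransferase, was higher (1.51, adjusted p = 0.00929). On the TPM scale *Por* and *Crot* had values just below 0, but both stayed above the median of all genes. Without WT mouse 1, WT mouse 3 or LKO mouse 2 the number of lower genes in this list was 3 and without LKO mouse 3 it was 4, in place of 7. *Acot3* was among the genes lost in the first 3 of these fits (adjusted p up to 0.0787), and without LKO mouse 1 its log2 fold change was −3.79.

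*Ppara*, the receptor gene whose product binds the promoters of *Cyp4a10* and *Cyp4a14*, was itself lower in LKO liver. It stood at 157, 181 and 288 CPM in the WT livers against 98.2, 105 and 83.5 CPM in the LKO livers, without overlap (−1.12 ± 0.24, adjusted p = 0.00685). WT mouse 1, which had the most *Cyp4a10* of the WT mice, had the least *Ppara*. Of 11 receptor and corepressor genes, 5 were lower and 1 higher, where 20.5% and 19.6% of all tested genes were, with a median of −0.48. *Pparg*, the receptor gene of fat storage, stood at 16.6 ± 1.15 CPM in the WT livers and 5.71 ± 1.96 CPM in those of LKO mice (n = 3 each; −1.54, adjusted p = 0.0023). *Ncor1*, a corepressor gene, stood at 107, 115 and 103 CPM in the WT livers against 68.0, 60.2 and 76.1 CPM in the LKO livers (−0.67 ± 0.15, adjusted p = 0.00747). *Hdac3*, the gene of the deacetylase that works with NCoR1, was lower (−0.72, adjusted p = 0.0351), as was *Tbl1x* (−0.46, adjusted p = 0.0247). *Tbl1xr1*, another subunit gene of that complex, was higher (0.52, adjusted p = 0.0386) but had a negative value with total-count and TPM scaling, and it passed in none of the fits without WT mouse 1, 2 or 3 or LKO mouse 1 or 2. Without WT mouse 3 or LKO mouse 2 the number of lower genes was 3. *Hdac3* (adjusted p up to 0.101) and *Tbl1x* (up to 0.0862) were among those lost.

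Other PPARα targets rose in part, and by less than *Cyp4a10*, *Cyp4a14*, *Cyp4a31* and *Cyp4a32*. Of 26 genes, 10 (against 19.6% of all tested genes) were higher and 2 (against 20.5%) lower, with a median of 0.31. *Pdk4*, a kinase gene that restrains pyruvate oxidation, stood at 6.37, 1.80 and 3.86 CPM in the WT livers against 9.13, 11.96 and 25.3 CPM in the LKO livers (1.95, adjusted p = 0.0158), and *Plin5*, which coats lipid droplets, rose by 1.69 on the log2 scale (adjusted p = 0.000394). *Etfdh* (1.41) and *Retsat* (1.25) were next, and both fell below 0 on the TPM scale while staying above the median of all genes. *Pex11a*, a peroxisome proliferation gene (−1.33, adjusted p = 0.00436), and *Slc25a20*, the mitochondrial carnitine carrier gene (−0.99, adjusted p = 0.00874), were lower. *Pdk4* did not pass without WT mouse 3 (adjusted p = 0.0594). The count of higher genes was 5 without WT mouse 2, 4 without WT mouse 3 and 5 without LKO mouse 2. With total counts 1 was higher and 11 lower, and with limma on log2(TPM + 1) 0 were higher and 19 lower, settings in which the median of all genes lay at −0.90 and −0.79. Of the 10 genes, 8 changed sign under at least 1 scaling, and 2 of the 10 did so relative to the median of all genes.

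*Cyp4a12a* belongs to the genes that are more abundant in male than in female mouse liver. Of 14 tested male-biased genes, 7 were lower and 2 higher, where 20.5% and 19.6% of all tested genes were, with a median of −1.11. *Hsd3b5*, a male-specific steroid reductase gene, stood at 54.4, 85.0 and 99.8 CPM in the WT livers against 3.02, 2.06 and 2.21 CPM in the LKO livers (−5.03, adjusted p = 0.000107). *Elovl3* (−3.34), *Selenbp2* (−3.22) and *Serpina12* (−2.54) were lower as well. *Elovl3* varied widely in WT liver, at 302, 81.0 and 43.7 CPM, and without WT mouse 1 its log2 fold change was −2.13. *Slco1a1*, a male-biased organic anion transporter gene, was higher (0.93, adjusted p = 0.021), as was *Ugt2b38* (0.67, adjusted p = 0.0457), but both had negative values on the TPM scale. Neither or only 1 of these was called in each fit without WT mouse 1, 2 or 3 or LKO mouse 2 or 3.

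Of 18 female-biased genes, 14 had enough counts to be tested. Of these, 7 were higher and 1 lower, where 19.6% and 20.5% of all tested genes were, with a median of 1.43. With total counts 3 were higher, and with limma on log2(TPM + 1) 2 were higher and 4 lower. Without the filter on low counts, which had dropped the untested ones, 8 were higher and 4 lower. Of all 25982 genes then tested, 3410 were higher and 3942 lower. *Sult1e1*, the estrogen sulfotransferase gene, stood at 0.268, 0.275 and 0.0454 CPM in the WT livers against 12.7, 44.8 and 112 CPM in the LKO livers. The LKO mice differed widely, but the lowest was far above every WT mouse. *Cyp17a1*, a steroid hydroxylase gene, was higher (1.96, adjusted p = 0.00531). *Cyp3a16*, which has close copies among which reads may be divided, passed as higher (2.14, adjusted p = 0.0314), but LKO mouse 2 at 31.5 CPM stood far above the other LKO mice at 5.84 and 4.995 CPM. Without that mouse its log2 fold change was 0.76, and without any 1 of the WT mice it did not pass (adjusted p up to 0.0943). *A1bg* was lower, from 0.753 ± 0.523 to 0.0440 ± 0.0433 CPM (n = 3 each).

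Sex bias in liver is set by the pattern of growth hormone, and 4 of 8 genes of its signaling were lower and 0 higher, where 20.5% and 19.6% of all tested genes were, with a median of −0.87. At an unadjusted p under 0.05, 0 were higher as well. *Igfals*, which encodes a carrier subunit of IGF1, was at 64.3 ± 7.47 CPM in the WT livers and 6.32 ± 3.97 CPM in those of LKO mice (n = 3 each; −3.34, adjusted p = 0.000546; −3.996 without LKO mouse 1). *Cish* (−1.87), *Stat5a* (−1.34) and *Ghr*, the growth hormone receptor gene (−1.26, adjusted p = 0.0139), were lower. The genotypes overlapped for *Cish*, at 5.35, 25.7 and 11.4 CPM in the WT livers against 3.07, 3.15 and 5.38 CPM in the LKO livers. Its log2 fold change was −1.13 without WT mouse 2, and it did not pass there or without LKO mouse 1 or 2 (adjusted p up to 0.0876). *Stat5b*, whose product carries the signal in hepatocytes, stood at 38.9, 31.2 and 36.4 CPM in the WT livers against 25.3, 19.4 and 35.6 CPM in the LKO livers, with overlap, and did not pass (−0.41 ± 0.22, adjusted p = 0.181).

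**Figure D5:**
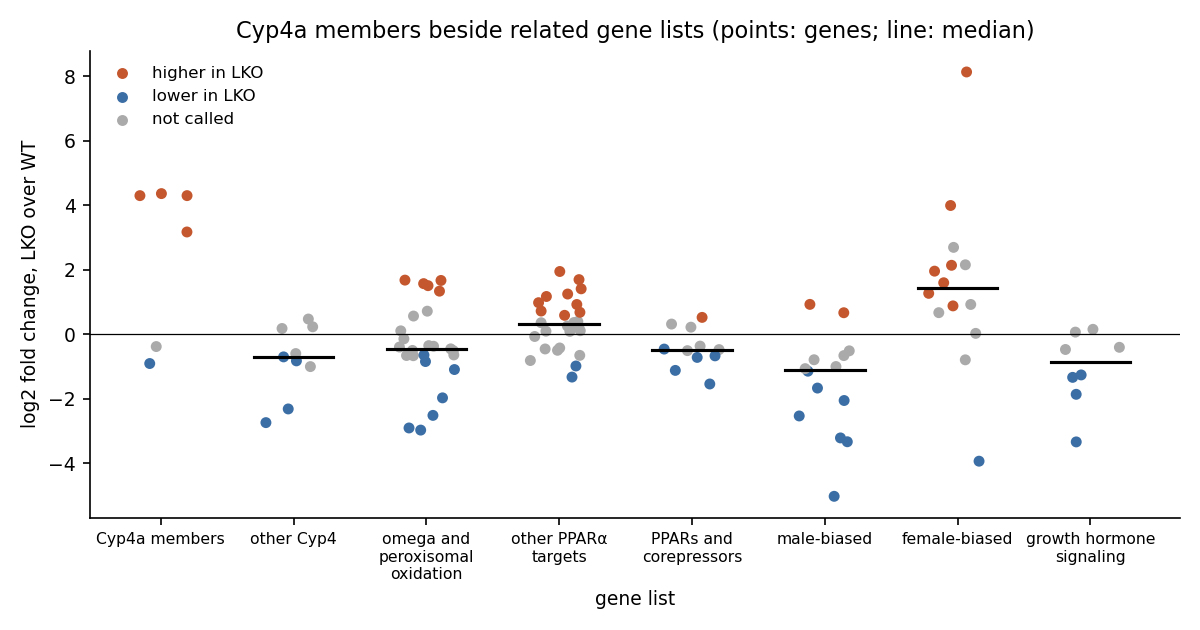
Log2 fold change of LKO over WT (y axis) of the 6 *Cyp4a* genes and of 7 gene lists (x axis), each point 1 gene, coloured by edgeR's test at an adjusted p under 0.05, with a line at each list's median. The 4 higher *Cyp4a* genes lie above every tested gene of the other *Cyp4*, oxidation, PPARα target, receptor, male-biased and growth hormone lists. *Sult1e1* leads the female-biased list. The *Cyp4a* genes were chosen on this contrast, so their place and colours are a description only.

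Markers of liver cell types were counted in the same way, where 19.6% of all tested genes were higher and 20.5% lower. The defining hepatocyte genes, *Alb* among them, were present in all mice, with 4 of 7 higher and 1 lower. Their summed level was 36918 to 40304 CPM in the WT livers and 99186 to 113307 CPM in those of LKO mice. Most of this sum was *Alb*, at 21079 ± 2368 CPM in the WT livers and 69388 ± 12609 CPM in those of LKO mice (n = 3 each). *Ttr* was the lower one (−1.35), and *Serpina1a* (−0.29) and *Serpina1c* (−0.63) had negative values but did not pass. Of 6 Kupffer cell markers 4 were higher (summed level 213 to 333 CPM in the WT livers, 394 to 787 CPM in the LKO livers), of 6 sinusoidal endothelial markers 4 (230 to 273 and 392 to 424 CPM), and of 6 stellate cell markers 2 higher and 1 lower (279 to 328 and 569 to 824 CPM). When scaled to total counts, the summed levels of these 3 cell types overlapped between genotypes, while that of the hepatocyte genes stayed higher in LKO mice. Of 4 tested cholangiocyte markers 1 was lower (summed level 32.9 to 50.1 CPM in the WT livers, 13.4 to 29.9 CPM in the LKO livers). Of 7 lymphocyte markers 1 was lower (4.51 to 5.87 and 2.61 to 4.82 CPM). When scaled to total counts, the summed levels of both were lower in every LKO mouse than in any WT mouse. The part of these shifts in the *Cyp4a* values was not tested.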

How the data were processed

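Liver RNA of 3 WT and 3 LKO mice was sequenced in paired reads of 100 bases, with 1 library per mouse. The methods of the paper describe a total RNA kit with rRNA removal, whereas the sample labels name an mRNA kit. The authors deposited whole-number read counts without normalization, FPKM that the authors scaled for gene length and fragment number, and TPM scaled by the authors to 1 sum per mouse, all from StringTie on mm10. The submitters' processing notes also name HISAT2 2.1.0, Bowtie2 2.3.4.1 and StringTie 2.1.3b. StringTie derives counts from coverage.

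Samples were grouped by the genotype in the labels. The methods name littermate controls but not which mice shared a litter. Genes at 0 in more than 1 of the 6 mice were dropped, which left 18636. The remaining counts entered edgeR 4.0.16 under R 4.3.3 (quasi-likelihood test, TMM scaling, genotype as the factor, two-sided, Benjamini-Hochberg adjustment over all tested genes, threshold 0.05). The paper's own test, exactTest, was an alternative. The members and gene lists were chosen with earlier results of these data known. Named in the text are all members, *Ppara*, *Pparg*, *Ncor1*, *Stat5b* and *Pak4*, up to 4 called genes with the largest change in each direction of each list, the neighbours in the RefSeq annotation of GRCm38.p6, and the 5 genes closest in profile to *Cyp4a10* and to *Cyp4a12a*. Further list or marker genes named for an example (*Tbl1x*, *Ttr*, *Serpina1a* and *Serpina1c*) were chosen after their values were seen. Of the 45777 gene numbers, 45679 matched RefSeq. Total counts per mouse limit precision only for genes with few counts. Coding sequences were read from GENCODE transcripts and aligned with mafft 7.526 and Biopython 1.88. The promoter of *Cyp4a32*, the 1 member of 6 in the RefSeq promoter table used, held none of the motifs AGGTCANAGGTCA, AGGTCA and TTCNNNGAA on either strand (the second is part of the first), which occur in 0.0396%, 16.3% and 8.3% of 32851 promoters. Only exact matches were sought, in 250 bases before and 50 bases after the start. Looser or more distant sites were not searched for. The alternatives were exactTest, DESeq2 1.42.0, other scalings and filters, the replicate number as a block, a gene length correction, limma 3.58.1 on TPM with a pseudocount of 1 or 0.1, and leaving out each mouse. A fit restricted to protein-coding genes was chosen after seeing the data. The procedures were tested on simulated counts, built without the shift in library make-up seen here. The choice of scaling was therefore not tested by them. The qPCR, protein and reporter experiments were not analysed here. The result of 1 gene of the lists is not reported here, and it stays in the counts and in the adjustment.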

Additional observations from a re-analysis of the deposited data

How the results depend on the processing

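The direction of the 6 *Cyp4a* genes and of their sums was the same under all 19 alternatives, which is a description of values the family was chosen on. The sums follow from the scaling and the mice alone, so alternatives that change neither repeat them. The values that moved by more than the spread between mice, or counts by more than 1.5 times, came mostly from scalings that shift all genes. With scaling to total counts, the log2 fold changes were 3.51 (*Cyp4a10*), 3.44 (*Cyp4a14*), 3.45 (*Cyp4a31*), 2.32 (*Cyp4a32*), −1.79 (*Cyp4a12a*) and −1.27 (*Cyp4a12b*), with 3.41 for the sum of *Cyp4a10*, *Cyp4a31* and *Cyp4a32*, −1.63 for the *Cyp4a12* pair and 2.41 for all 6. With limma on log2(TPM + 1) they were 2.98, 3.01, 2.46, 1.55, −2.42 and −1.91, and with a pseudocount of 0.1 they were 2.99, 3.02, 2.78, 1.62, −2.45 and −1.96, with 2.75, −2.30 and 1.77 for the sums. In these 3 settings 2 members were called lower, which is not read further. The medians of all genes were −0.90, −0.79 and −1.34, and the share of higher among called genes went from 49.0% to 10.9%, 3.29% and 3.34% (1167 higher and 9575 lower with totals, 453 and 13322, and 467 and 13535 with TPM, against 3661 and 3815). Counts of higher and lower genes in the lists moved with them. Other *Cyp4* genes had 7, 8 and 8 lower. Partners and peroxisomal oxidation had 2, 0 and 0 higher and 18, 19 and 19 lower. Other PPARα targets had 1, 0 and 0 higher and 11, 19 and 19 lower. Male-biased genes had 0 higher in each and 12, 14 and 14 lower, and female-biased genes 3, 2 and 2 higher, with 4 lower on both TPM scales. Receptors and corepressors had 0 higher in each and 8, 11 and 11 lower, and growth hormone signaling 7 lower in each.

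Leaving out 1 mouse gave 4.03 to 5.01 for *Cyp4a10*, with the top value without WT mouse 1, and moved these list counts: other *Cyp4* genes higher 0 to 1, partners lower 3 to 10, PPARα targets higher 4 to 9, male-biased higher 0 to 2, female-biased lower 1 to 2, and receptors higher 0 to 1 and lower 3 to 5. Upper-quartile scaling gave 1 other *Cyp4* gene higher and 4 partners lower. Without a filter on low counts, 1 male-biased gene and 0 receptors were higher and 4 female-biased genes lower, and with at least 10 counts in every mouse 0 female-biased genes were lower. With protein-coding genes alone 1 other *Cyp4* gene was higher. The cause of these shifts was not tested. The deviations of same-numbered mice correlated at 0.0563, −0.0171 and −0.0797 over 12999 genes, so no pairing by replicate number was seen. This cannot tell whether such mice shared a litter or a batch. With the replicate block, *Cyp4a10* was at 4.54, 3129 genes were higher and 3302 lower, and 0 receptors were higher. With the replicate block and the gene length correction together, 1 other *Cyp4* gene was higher and 3 receptors were lower. Depth did not limit the members, of which the lowest count was 170 (*Cyp4a31*).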
